A study of Drosophila melanogaster with 6 samples.

Results

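Small nucleolar RNAs (snoRNAs) and small Cajal body RNAs (scaRNAs) that guide RNA modification were followed through 6 libraries of RNA recovered with antibodies from fly ovary. The members were taken by name: all genes of experiment 2 whose symbol begins with snoRNA: or scaRNA:, apart from 3 genes of the U3 snoRNA. This gave 285 of 17398 genes, of which 270 are snoRNAs and 15 are scaRNAs. By symbol, 115 are named for pseudouridylation (Psi), 107 for methylation (Me) and 63 for neither. The symbols name 18S rRNA as the target of 76 members, 28S rRNA of 127, 5.8S rRNA of 1, and the spliceosomal RNAs U1, U2, U4, U5 and U6 of 2, 8, 1, 4 and 3.

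Box H/ACA RNAs pair with a target and direct the conversion of a uridine to pseudouridine by the synthase that Nop60B encodes in flies. Box C/D RNAs direct methylation of the ribose by fibrillarin (Fib). snoRNAs act mostly on ribosomal RNA in the nucleolus, and scaRNAs act on spliceosomal RNAs in Cajal bodies. Most fly snoRNAs are cut out of introns of a host gene, often a gene for a ribosomal protein, so host and guide RNA begin as 1 transcript.

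The tissue was the ovary of wild-type Oregon-R females collected within 12 hours of eclosion, with about 200 females for each experiment. A lysate was divided among anti-Lsd1 (Lsd1 is a histone demethylase), anti-Bre1 (Bre1 is a ubiquitin ligase for histone H2B) and IgG, the control antibody. This is RNA immunoprecipitation followed by sequencing (RIP-seq). It was done in 2 experiments, with 1 library for each antibody in each, to survey noncoding RNAs found with the Lsd1 or Bre1 complexes. No input RNA library was analysed here, so a ratio over IgG compares 2 immunoprecipitations. Nothing in the labels gives the lysates as separate biological samples beyond the experiment number, so the spread between the 2 experiments may be technical. The p-values rest on what antibody and experiment leave over, with 2 residual degrees of freedom per gene. To these the fit added 81 prior degrees of freedom (median) from all tested genes. A p-value therefore hardly measures the spread of its own gene.

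Outside ribosomal RNA, experiment 1 held 1539873 fragments with Lsd1, 200446 with Bre1 and 1398103 with IgG. Experiment 2 held 1619605 exon reads with Lsd1, 7447852 with Bre1 and 8739562 with IgG. Such reads made up 3.41% of the reads to which the deposited RPKM is scaled with Lsd1 in experiment 2, 9.98% with Bre1 and 18% with IgG. All 6 germline markers, 5 follicle cell markers and 5 muscle sheath markers reached at least 1 FPKM or RPKM in a library, and none of 4 fat body and 3 hemocyte markers did. Before scaling, the germline markers summed in experiment 1 to 261.6 and 7.62 FPKM with Lsd1 and Bre1, against 150 FPKM with IgG. There vas had no matching gene ID. In experiment 2 they summed to 19.4 and 171 RPKM, against 529 RPKM. The follicle cell markers there summed to 67.05, 83.4 and 88.0 RPKM with Lsd1, Bre1 and IgG, and the muscle sheath markers to 75.5, 71.45 and 80.8. The scaling used below divides these 3 libraries by 0.371, 1.259 and 1.992, which raises Lsd1 against IgG. The 3 gut markers summed to 23.6, 2.58 and 17.2 FPKM with Lsd1, Bre1 and IgG in experiment 1 and to at most 1.07 RPKM in experiment 2. The part of these differences in the results below was not tested. The 3 libraries of an experiment came from a single lysate, so marker differences within an experiment lie between libraries of 1 lysate. Between experiments, the tissue taken and the quantification cannot be told apart.

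How many of the guide RNAs were seen at all followed their length. snoRNAs named Psi had a median length of 140 bases, those named Me 81 bases, and the other snoRNAs 99 bases. In experiment 2, 127 of the 143 members over 130 bases had a read in at least 1 library, against 39 of the 142 members of at most 130 bases. In experiment 1, none of the 254 members of at most 150 bases had a fragment, while 12 of the 31 longer ones did, including all 6 over 200 bases. Class and length cannot be told apart for most members. Of the 98 Me snoRNAs, none reached the minimum for testing, and together they held 7 reads with Lsd1, 49 with Bre1 and 32 with IgG in experiment 2.

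**Figure D1:**
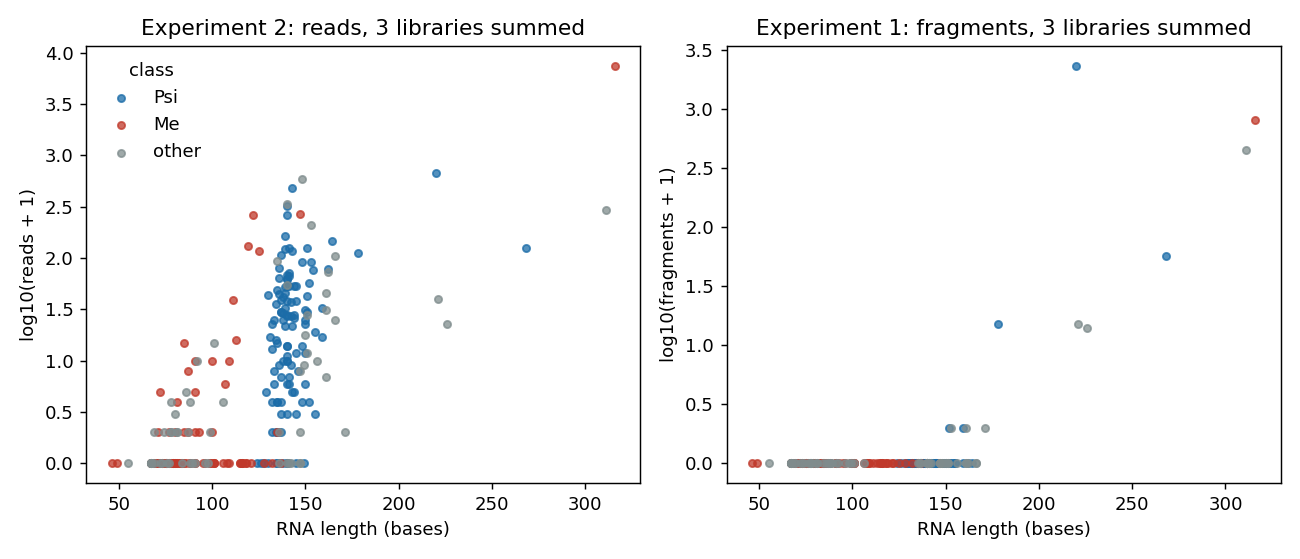
Length of each of the 285 members in bases (x) against log10(reads + 1) in experiment 2 (left) and log10(fragments + 1) in experiment 1 (right), summed over 3 libraries, with colours for Psi, Me and other members. Reads become frequent above 130 bases in experiment 2, and no member of at most 150 bases has a fragment in experiment 1.

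In all, 166 members had a read in experiment 2, 97 had at least 10 and 23 at least 100 over the 3 libraries. The members together held 1452 reads with Lsd1, 4917 with Bre1 and 9296 with IgG. As shares of exon reads outside ribosomal RNA these were 0.0897% with Lsd1 (exact 95% binomial interval 0.0851% to 0.0944%), 0.0660% with Bre1 (0.0642% to 0.0679%) and 0.106% with IgG (0.104% to 0.109%). A single RNA, scaRNA:MeU5-C46, made up 47.7% of all member reads. Intervals here cover counting error only, since reads are not independent molecules after PCR. A count of 0 allows up to 3 reads, from which folds against a library at 0 are given as bounds. The bounds take the IgG count as free of counting error. After scaling, 1 read with Lsd1 in experiment 2 stood for 5.48 reads with IgG.

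Almost all member reads of experiment 2 were counted as not unique by the authors, which went with lying inside a host gene. Whether such reads were shared with the host was not tested. The 274 members that lie inside a gene on the same strand held 15239 reads, and 0 of them were counted as unique. The 11 members with no such gene held 426 reads, of which 425 were unique. For the most read member, its reads did not stand among the intron reads of its host. scaRNA:MeU5-C46 had 99, 1717 and 5662 reads with Lsd1, Bre1 and IgG, whereas its host CG1142 had 0, 4 and 6 intron reads and 12, 447 and 675 exon reads. Because the kit leaves strand unmarked, reads of a guide could not be separated from those of an antisense RNA.

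In experiment 1 the fragments of the members came from few RNAs. snoRNA:Psi28S-291 (chromosome 3R, 11223571 to 11223790, build dm6), a guide for 28S rRNA inside RpL3, had 1300 fragments with Lsd1, 81 with Bre1 and 932 with IgG. scaRNA:MeU5-C46 (chromosome 3R, 7472907 to 7473222), a guide for U5 RNA, had 309, 76 and 421. snoRNA:Tudor-SN-a (chromosome 3L, 259970 to 260280), which lies in the gene of the nuclease Tudor-SN, had 265, 0 and 183. The Bre1 library was lowest for each, as it was in total fragments. snoRNA:Psi28S-2566 (chromosome 3L, 18896189 to 18896456) had 34, 1 and 21 fragments with Lsd1, Bre1 and IgG, and the remaining 8 members had at most 10 in any library.

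The leading RNA differed between the experiments within the same antibody. With IgG, snoRNA:Psi28S-291 had 932 fragments and scaRNA:MeU5-C46 had 421 in experiment 1, while they had 372 and 5662 reads in experiment 2. The experiments were also quantified in different ways, so an experiment cannot be told apart from its quantification.

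**Figure D2:**
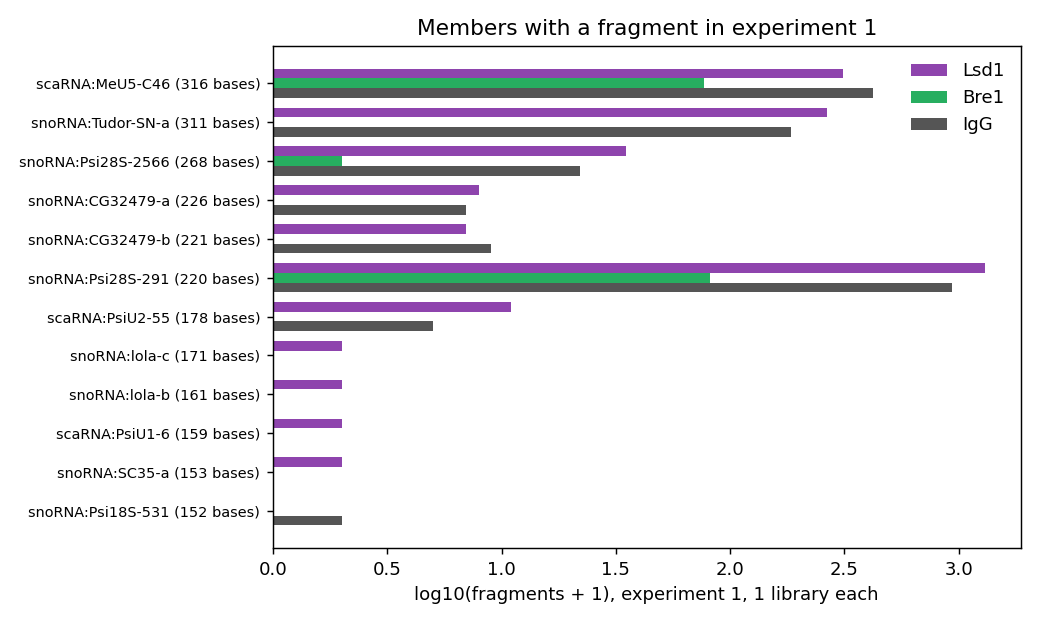
log10(fragments + 1) in experiment 1 for the 12 members with a fragment in any library, longest at the top, with bars for Lsd1, Bre1 and IgG (1 library each). snoRNA:Psi28S-291, scaRNA:MeU5-C46 and snoRNA:Tudor-SN-a hold nearly all fragments, and 5 members hold a single fragment each.

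Across both experiments, 1 member passed the test against IgG, and it did so for both antibodies. Of 285 members, 67 passed the filter on low values and were tested among 6628 genes. This filter was applied before scaling and asked for an FPKM or RPKM of 1 or more in 2 or more libraries. Of the 67, 56 had no fragment in experiment 1. For these the ratio of experiment 1 is 0 by construction, which pulls the fitted change towards 0. snoRNA:Psi28S-2648, for example, had Lsd1 ratios of 0 and 1.64 and a fitted change of 0.818. The lack of a call for such members is therefore not a result of both experiments. snoRNA:Psi18S-531 (chromosome X, 763083 to 763234), a guide for 18S rRNA that lies in RpL22 and in the noncoding gene CR42491, was lower with Lsd1 (fitted log2 change -4.60, SE 0.925, limma adjusted p = 0.0226) and lower with Bre1 (-4.69, SE 0.925, limma adjusted p = 0.0155). It was the single gene called in each comparison, so the share of tested genes called lower was 0.0151% in each and the share called higher was 0%. The call rested on 1 fragment: in experiment 1 this RNA had 0 fragments with Lsd1, 0 with Bre1 and 1 with IgG. In experiment 2 it had 5, 22 and 29 reads, and log2 ratios over IgG of -0.05 with Lsd1 and -0.23 with Bre1. Without the IgG library of experiment 1 the limma adjusted p was 0.993 with Lsd1 and 1.0 with Bre1, and over the alternatives with a value it ranged between 8.52e-10 and 1.0 with Lsd1 and between 4.77e-10 and 1.0 with Bre1. edgeR and DESeq2 on fragments and reads called no member in either comparison, and DESeq2 gave this RNA no adjusted p with Lsd1.

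At an unadjusted limma p under 0.05, 15 tested members stood out with Lsd1, 8 higher and 7 lower, against 2.26% of all tested genes. With Bre1, 5 did, all lower, against 3.74% of all tested genes. These counts depend on single libraries, since leaving out 1 library gave 3 to 53 with Lsd1 (53 without the first Lsd1 library, 3 without the second IgG library) and 5 to 9 with Bre1, and the fit without the experiment block gave 2 with each. The next smallest adjusted p among members was 0.178 with Lsd1 and 0.068 with Bre1, the second of these for snoRNA:Tudor-SN-a. Its fitted change with Bre1 was -4.02 (SE 0.890, limma adjusted p = 0.068). It passed the threshold in 4 alternative settings, and over left-out libraries the change lay between -6.84 (without the second Bre1 library) and -1.13 (without the first). In experiment 1 its log2 ratio was -6.73, and in experiment 2, with 62 reads against 203 with IgG, it was -1.31.

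The members with fragments in experiment 1 allow ratios to be set side by side, and none of those named here passed the adjusted threshold apart from snoRNA:Psi18S-531. With Lsd1, snoRNA:Psi28S-2566 had log2 ratios of 0.51 and 2.04 in experiments 1 and 2, and snoRNA:Psi28S-291 had 0.32 and 0.60. scaRNA:PsiU2-55, a guide for U2 RNA inside the splicing factor gene Prp8, had 1.15 and 0.14. snoRNA:CG32479-a, which lies in the deubiquitinase gene Usp10, had a fitted change of 0.31 (SE 0.737), and its neighbour snoRNA:CG32479-b had -0.78 (SE 0.759). For scaRNA:MeU5-C46 the Lsd1 ratios were -0.60 and -3.31. With Bre1, the fitted changes were -3.06 (SE 0.891) for scaRNA:PsiU2-55, -2.34 (SE 0.759) for snoRNA:CG32479-b and -0.88 (SE 0.784) for snoRNA:Psi28S-2566. Limma adjusted p-values for these ranged upward from 0.678. The Bre1 changes came mostly from experiment 1. Without the first Bre1 library they were 0.20, -0.01 and -0.53 in the same order. The Bre1 ratios of scaRNA:PsiU2-55 were -6.04 in experiment 1 and -0.08 in experiment 2.

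Within experiment 2, where most members have their reads, read sums were taken by class, and the difference between classes was not tested. The scaRNAs named Me summed to 116 reads with Lsd1, 1845 with Bre1 and 6330 with IgG, which after scaling is 0.10 times IgG with Lsd1 (95% counting interval 0.0828 to 0.121) and 0.299 times IgG with Bre1 (0.284 to 0.315). Without scaRNA:MeU5-C46 these were 0.139 and 0.197. The snoRNAs named Psi summed to 1110 reads with Lsd1, 1922 with Bre1 and 2004 with IgG, or 3.03 times IgG with Lsd1 (2.82 to 3.27) and 0.985 times with Bre1 (0.925 to 1.05). The Lsd1 value for Psi snoRNAs depends on scaling, since the reads as deposited gave 0.565, while shares of reads outside ribosomal RNA gave 2.99. It was 1.63 without both copies of Psi28S-3436. The other snoRNAs summed to 202, 1015 and 834 reads, or 1.33 times IgG with Lsd1 and 1.25 times with Bre1. For them reads as deposited gave 0.247 and 0.790, and shares of reads outside ribosomal RNA gave 1.31 and 1.43. Each of these is a comparison of single libraries with no replicate error.

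Experiment 1 gives the same sums over the few members with fragments, as shares of fragments outside ribosomal RNA. The Me scaRNAs, there scaRNA:MeU5-C46 alone, held 0.0201% with Lsd1 (exact 95% binomial interval 0.0179% to 0.0224%), 0.0379% with Bre1 (0.0299% to 0.0475%) and 0.0301% with IgG (0.0273% to 0.0331%). These are 0.666 times IgG with Lsd1 and 1.26 times with Bre1, where shares of all Me scaRNAs in experiment 2 gave 0.0989 and 0.342. The low values of experiment 2 were therefore not repeated in size with Lsd1 or in direction with Bre1. The Psi snoRNAs, nearly all of them snoRNA:Psi28S-291, held 1334 fragments with Lsd1, 82 with Bre1 and 954 with IgG, or 1.27 times IgG with Lsd1 and 0.60 times with Bre1. Shares of Psi snoRNAs in experiment 2 gave 2.99 and 1.13.

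Over the 67 tested members, log2 ratios in experiment 2 spread more widely with Lsd1 than with Bre1. With both antibodies a larger share of members than of all tested genes lay above 1. Below -1 the share of members was the larger with Bre1 only. With Lsd1, 23 members (34.3%) were above 1 and 22 (32.8%) below -1, against 4.41% and 42.4% of all tested genes, whose median was -0.84. With Bre1, 6 members (9.0%) were above 1 and 8 (11.9%) below -1, against 0.272% and 3.8% of all tested genes, whose median was -0.22. Other short RNAs also lay far from the median of all genes. Of 26 tested genes of at most 200 bases that are not members, 15 were above 1 and 1 below -1 with Lsd1 (median 1.46), and 1 was above 1 and 10 below -1 with Bre1 (median -0.33). The median over tested members was -0.43 for Lsd1 and -0.13 for Bre1. Because 25 of the 67 had 0 reads with Lsd1 and the median was 6 reads there, against 26 with IgG, part of the Lsd1 spread is at the level of a few reads. Members that passed the filter did so mostly through the libraries in which they were high, so these counts describe the tested members and not all 285.

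**Figure D3:**
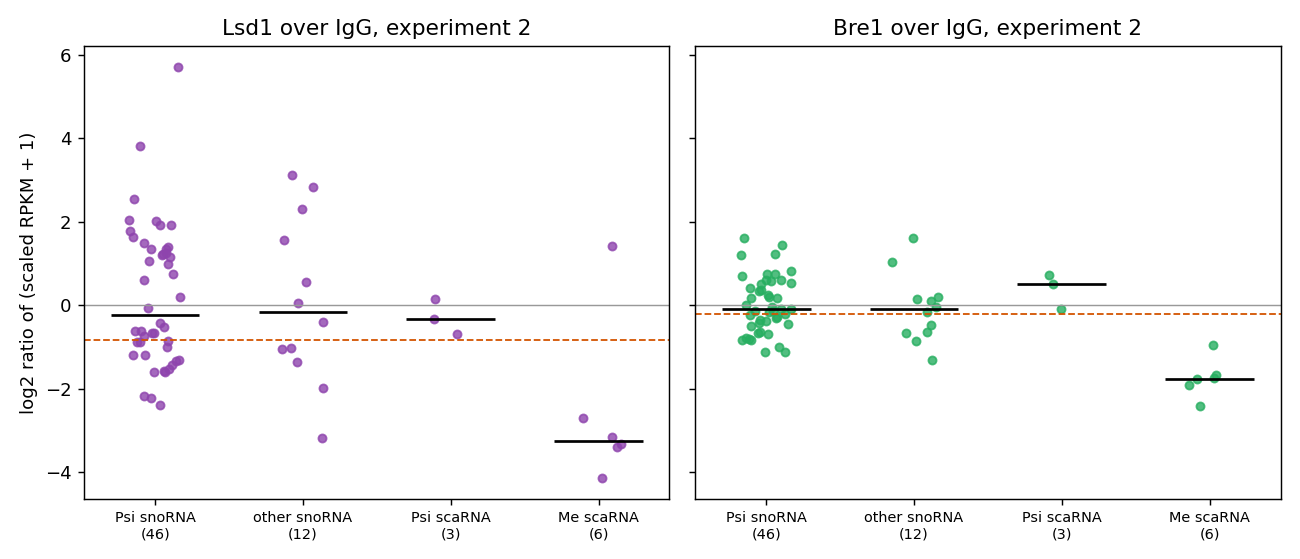
log2 ratio of (scaled RPKM + 1) over IgG in experiment 2 for the 67 tested members by class, with Lsd1 on the left and Bre1 on the right (number tested in brackets). Black bars are class medians, the grey line is 0 and the dashed line is the median of all 6628 tested genes; 5 of 6 Me scaRNAs lie below -2 with Lsd1, and all 6 lie below 0 with Bre1.

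Among the Me scaRNAs, 5 of the 6 with reads had fewer scaled reads with both antibodies than with IgG in experiment 2. scaRNA:MeU5-C46 had 17.8 scaled RPKM with Lsd1, 57.8 with Bre1 and 186 with IgG. scaRNA:MeU4-A65 (chromosome 3L, 17628057 to 17628203), a guide for U4 RNA inside CG7510, had 0 reads with Lsd1, 32 with Bre1 and 236 with IgG. With Lsd1 its exact interval reached up to 0.086 times IgG, or a bound of 14.4-fold lower if the IgG count is taken as free of error. With Bre1 it was 0.139 times IgG. The IgG library was the highest of the 3 for both RNAs.

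The U2 guides of the Me kind followed the same order. scaRNA:MeU2-C41, inside the ATPase gene lds, had 4 reads with Lsd1, 52 with Bre1 and 207 with IgG. scaRNA:MeU2-G25, inside mask, had 0, 20 and 109 reads, with an exact interval up to 0.189 times IgG with Lsd1. scaRNA:MeU2-48, inside the splicing factor gene hfp, had 0, 19 and 96 reads, with an exact interval up to 0.215 times IgG with Lsd1. If the IgG count is taken as free of error, the bounds are 6.63-fold and 5.84-fold lower. The exception was scaRNA:MeU5-U42, inside CG12316, with 13, 5 and 20 reads and log2 ratios of 1.42 with Lsd1 and -0.95 with Bre1. scaRNA:MeU1b-A234, scaRNA:MeU5-G38 and scaRNA:MeU2-C28 had no read in any library of experiment 2.

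The Psi scaRNAs summed to 17 reads with Lsd1, 86 with Bre1 and 96 with IgG, or 0.970 times IgG with Lsd1 (0.543 to 1.64) and 0.920 times with Bre1 (0.679 to 1.24). scaRNA:PsiU2-55 held most of them, with 11, 48 and 53 reads. scaRNA:PsiU2-38.40.42 had 0, 21 and 8 reads and scaRNA:PsiU1-6 had 0, 12 and 4, so both were highest with Bre1. scaRNA:PsiU5-44, inside the splicing regulator gene tra2, had 0, 4 and 17 reads and scaRNA:PsiU2-35.45 had 0, 1 and 12, so both followed the order of most Me scaRNAs, at 0.242 and 0.0856 times IgG with Bre1. scaRNA:PsiU6-40, inside skd, had 6, 0 and 2 reads. In experiment 1, scaRNA:MeU5-C46 had log2 ratios of -0.60 with Lsd1 and 0.17 with Bre1, and its fitted changes over both experiments were -1.96 and -0.75 (SE 1.23 each, limma adjusted p = 0.966 and 1.0).

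The hosts of the Me scaRNAs did not all have the ratios of their guides. The exon reads of CG1142 were 0.097 times IgG with Lsd1, next to 0.0958 for scaRNA:MeU5-C46, but 0.680 times with Bre1, next to 0.311. Those of CG7510 and lds were also low with Lsd1, like their guides, at 0.159 and 0.208 times IgG. With Bre1 these hosts were at 0.58 and 0.703, next to 0.139 and 0.258 for their guides. CG12316 was at 0.088 with Lsd1 and 0.546 with Bre1, whereas scaRNA:MeU5-U42 was at 3.56 and 0.257. The exon reads of mask were 0.743 times IgG with Lsd1 and 1.22 times with Bre1, and those of hfp were 1.52 times with Lsd1 and 0.934 times with Bre1, whereas scaRNA:MeU2-G25 and scaRNA:MeU2-48 were 0.188 and 0.203 times IgG with Bre1.

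The largest single Lsd1 excess in reads belonged to guides of 28S rRNA in the introns of RpL17, a ribosomal protein gene. snoRNA:Psi28S-3436b (chromosome X, 6742349 to 6742491) had 437 reads with Lsd1, 7 with Bre1 and 32 with IgG, or 173 scaled RPKM with Lsd1 against 2.32 with IgG, a fold of 74.8 (52.2 to 111). Its copy snoRNA:Psi28S-3436a, named after its values were seen, had 92 reads with Lsd1, 9 with Bre1 and 23 with IgG. Both lie on the same side in the deposited RPKM too, at 64.3 against 4.62 and at 13.7 against 3.37 with Lsd1 and IgG. The exon reads of RpL17 were 2.74 times IgG with Lsd1, and its log2 ratios were -0.52 in experiment 1 and 1.43 in experiment 2. Neither copy had a fragment in experiment 1 in any library, so the excess was seen in 1 library of 2, and neither copy was called over both experiments.

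**Figure D4:**
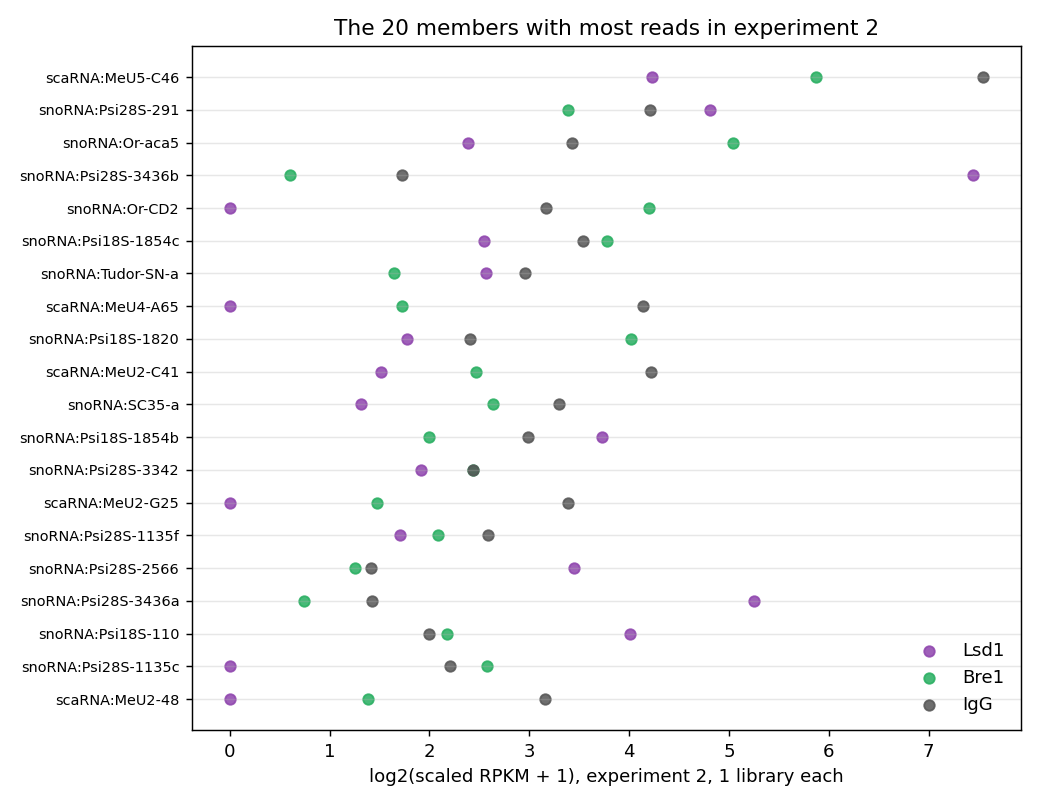
log2(scaled RPKM + 1) in experiment 2 for the 20 members with most reads, with points for Lsd1, Bre1 and IgG (1 library each). The scaRNAs named Me have IgG as the rightmost point, snoRNA:Psi28S-3436b and snoRNA:Psi28S-3436a have Lsd1 far to the right, and snoRNA:Or-aca5, snoRNA:Or-CD2 and snoRNA:Psi18S-1820 have Bre1.

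Copies of a guide that share a host and a target did not all give the same ratio, as seen in sets chosen here after their values were known. The 5 copies of Psi18S-1377 in RpS7 summed to 62 reads with Lsd1, 159 with Bre1 and 62 with IgG. Of these, snoRNA:Psi18S-1377a had 39, 9 and 3 reads, whereas snoRNA:Psi18S-1377e had 0, 79 and 27. Guides of different families in the same host could differ as well: in RpS16, snoRNA:Or-aca1 had 51, 13 and 28 reads, and its neighbour snoRNA:Psi28S-1175b had 0, 44 and 8. In RpS5a, the 3 copies of Psi18S-1854 had 42, 225 and 264 reads in all. The most read of them, snoRNA:Psi18S-1854c (chromosome X, 17145210 to 17145349), had 12, 168 and 144. Near-identical copies can share reads, and the sources used here do not say how the counting divided such reads.

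With Bre1, both of the most read snoRNAs of Uhg4, a noncoding gene whose introns carry 7 members, had more reads than with IgG. snoRNA:Or-aca5 (chromosome 2R, 9095685 to 9095832) had 11 reads with Lsd1, 443 with Bre1 and 140 with IgG, and was 3.25 times IgG with Bre1 (2.68 to 3.96). snoRNA:Or-CD2 (chromosome 2R, 9097030 to 9097169) had 0, 229 and 108 reads, which is 2.18 times IgG with Bre1 (1.72 to 2.76). With Lsd1 the bound is 6.57-fold lower if the IgG count is taken as free of error. In experiment 2 the spliced host had 0 exon reads with Lsd1, 143 with Bre1 and 385 with IgG, which is 0.381 times IgG with Bre1. Its Bre1 log2 ratio was 0.95 in experiment 1 and -1.15 in experiment 2, so the host itself did not keep a direction. Without these 2 RNAs, the other snoRNAs were 0.601 times IgG with Bre1.

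snoRNA:Psi18S-1820, named after its values were seen, lies in Nop60B, the gene of the pseudouridine synthase itself. It had 6 reads with Lsd1, 201 with Bre1 and 58 with IgG, or 3.56 times IgG with Bre1 (2.64 to 4.85), while the exon reads of Nop60B were 0.740 times. The Bre1 log2 ratio of Nop60B was 1.20 in experiment 1 and -0.43 in experiment 2. None of these RNAs had a fragment in experiment 1, so the Bre1 values too come from 1 library.

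Across hosts, the ratio of a guide was on either side of that of its host about equally often. Of 59 tested members with a tested host, in 35 host genes, 31 had a higher log2 ratio than the host with Lsd1 in experiment 2 and 28 a lower one, with a median difference of 0.02. With Bre1, 26 were above the host and 33 below, with a median difference of -0.11. Members that share a host are not independent.

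**Figure D5:**
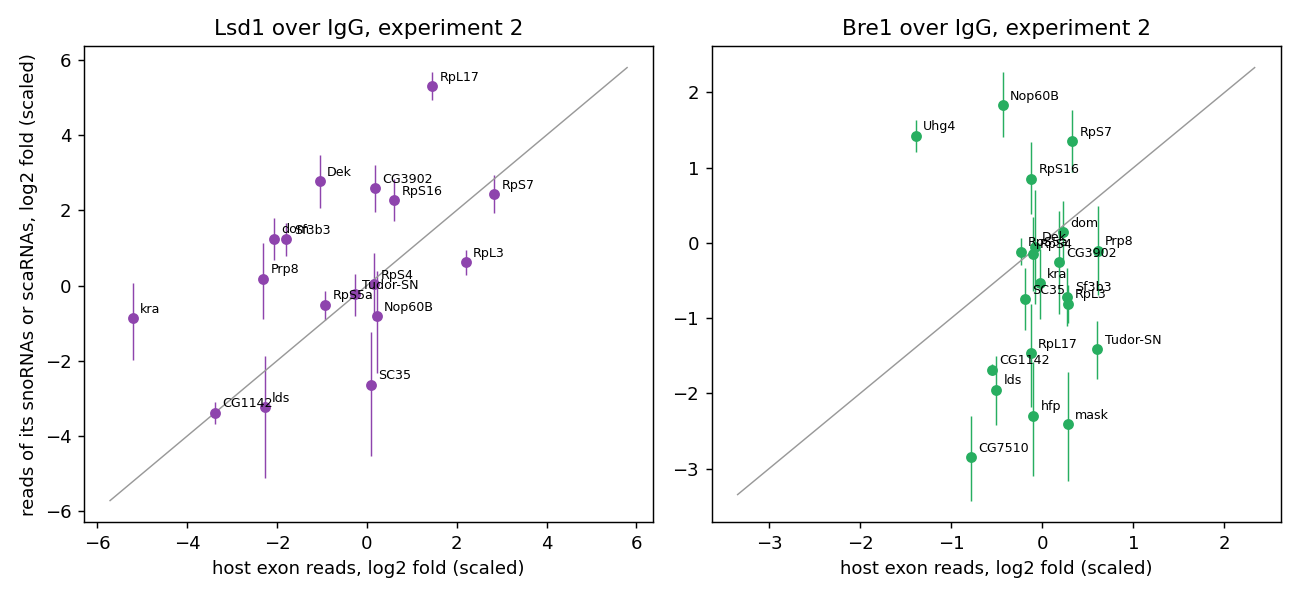
log2 fold over IgG of the exon reads of each host (x) against that of the summed reads of the snoRNAs or scaRNAs it holds (y) in experiment 2, after scaling, with Lsd1 on the left and Bre1 on the right. Hosts with at least 100 member reads and no zero in the ratio are shown, bars are 95% counting intervals and the line marks equal folds; RpL17 lies far above it with Lsd1, and Uhg4 and Nop60B lie above it with Bre1.

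The mRNAs of the modification machinery gave no call. None of 13 genes passed an adjusted p of 0.05 with limma in either comparison. Of all tested genes 0.0151% passed in each, so the lack of a call says little about these 13. In experiments 1 and 2 the medians of their log2 ratios over IgG were -0.10 and -0.25 for Lsd1, against 0.03 and -0.84 for all tested genes. For Bre1 they were -1.52 and -0.06, against -0.40 and -0.22. Among the box C/D proteins, hoip, which binds the kink-turn of the guide RNA, had 25 reads with Lsd1, 808 with Bre1 and 2409 with IgG in experiment 2, and Lsd1 ratios of 0.02 and -3.66 in experiments 1 and 2. Fib and nop5, core proteins of the same particle, had Lsd1 ratios of -0.03 and 1.00 and of -0.24 and 1.89, and Nop56 had -0.22 and -0.30. Among the box H/ACA proteins, Nop60B had -0.22 and 0.22, NHP2 had -0.02 and -2.02, CG7637 (Nop10) had -0.59 and -3.50, and CG4038 (Gar1) had -0.62 and -0.25.

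For Bre1 the ratios of hoip were -2.79 and -1.47 and those of CG7637 were -2.50 and -1.69, so both were below IgG in both experiments without passing the test (fitted changes -2.13, SE 0.94, and -2.10, SE 0.80, limma adjusted p = 1.0 for each). The assembly factors pont and rept had Bre1 ratios of -1.76 and 0.26 and of -1.79 and 0.44. Nopp140, a chaperone of the particles, had 1.26 with Lsd1 in experiment 2 and -0.09 in experiment 1. coil, the Cajal body protein, and Tgs1, the enzyme of the trimethyl cap, had at most 230 reads in any library of experiment 2, and their fitted changes lay between -0.52 and 0.12.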

How the data were processed

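RNA of fly ovary RIPs with anti-Lsd1, anti-Bre1 or IgG was read in 6 libraries. For experiment 1 the authors deposited Cufflinks FPKM per transcript with confidence limits, per the file headers; FPKM was summed per gene. For experiment 2 the authors deposited RPKM and read counts per gene, per the file headers; the sources used here give no program for these tables. Build dm6, Bowtie2 2.0.6.0, TopHat, Cufflinks and SAMtools 0.1.18.0 stand in the submitters' processing notes. Genes were joined by ID (17021 of 17398), and 29 without an estimate in experiment 1 were left out. Fragments of experiment 1 were recovered from the FPKM and its upper limit, on the assumption that the limit is 2 square roots of the count away. Among low genes with 1 transcript, 80.4% to 83.7% of these were whole within 0.05.

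Scaling used the median ratio across 1009 genes that reached 1 in all 6 libraries. Genes with at least 1 in at least 2 libraries were tested as log2(value + 1), so folds of low genes are understated, with limma 3.58.1 in R 4.3.3 (antibody, and experiment as a block, eBayes with trend; Benjamini-Hochberg over 6628 genes, threshold 0.05). The design had expected FPKM and RPKM, so no count test was the main one; edgeR 4.0.16 and DESeq2 1.42.0 on fragments and reads were alternatives. The block comes from the labels, which say 1 lysate was divided among the antibodies. Deviations of libraries with the same number correlated at 0.49 (Lsd1 and IgG), 0.53 (Bre1 and IgG) and 0.14 (Lsd1 and Bre1), which different quantification of the experiments would also give. Read folds within experiment 2 use the same scaling with no pseudocount. A host is the smallest gene on the same strand that contains the member.

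The members, gene lists and tests were chosen with earlier results of these data known. Members named are those called, up to 5 per direction and antibody with the largest fitted change among those with the same sign in both experiments, the 6 with most reads in experiment 2, every scaRNA, their hosts and 13 machinery genes; others are marked in the text as chosen after their values were seen. The 3 comparisons of read sums with other scalings or without the most read members were also added after seeing the data. No sequence is printed.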

Additional observations from a re-analysis of the deposited data

How the results depend on the processing

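The call of snoRNA:Psi18S-531, the single called member with each antibody, remained in 5 settings with each, and its fitted change kept its size in several where it was lost (Lsd1 -4.60 with no block, filter or trend, -6.28 with pseudocount 0.1, -5.63 as deposited). With unique reads or a minimum of 5 it was not tested, having no unique read or too low values; the single Lsd1 call under a minimum of 5 was snoRNA:SC35-a, at 3.26 and with 1 fragment in all of experiment 1, in the Lsd1 library. The Lsd1 count was 0 with no replicate block, with pseudocount 0.1, without the filter, with values as deposited, with quantile normalization, without the trend, with unique reads, with edgeR and with DESeq2, and 6 with pseudocount 5 (15 of all genes). Leaving out 1 library gave 0 to 40, the 40 coming without the first Lsd1 library (2153 of 6182 genes in all), which leaves 1 shallow Lsd1 library assumed to vary like the others; 3 came without the second, and 2 each without the second Bre1 or IgG library. The Bre1 count was 0 in the same 9 settings and 2 with a minimum of 5 and with genes measured in each experiment; leaving out 1 library gave 0 to 5, with 5 without the second Bre1 library (52 genes in all) and 4 without the first Lsd1 library (219). With Bre1, snoRNA:Tudor-SN-a was called in 4 settings, scaRNA:PsiU2-55 in 3 and snoRNA:CG32479-b in 2. With Lsd1, snoRNA:SC35-a was called in 6, and the Psi28S-3436 copies, scaRNA:PsiU1-6 and snoRNA:lola-b in 2 each. The fitted Lsd1 change of snoRNA:SC35-a was -1.77 without the first Lsd1 library and 8.61 without the second, so its direction turned. DESeq2 called 11 genes of all with Lsd1 and 1 with Bre1, and edgeR 0.

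The median log2 ratio of tested members in experiment 2 (-0.43 with Lsd1) was -0.79 with pseudocount 0.1, -0.15 with 5, -0.17 without the filter, -0.81 with a minimum of 5, -1.39 as deposited (all genes -2.01), 0.27 with quantile normalization (all genes 0.05) and 0 with unique reads. With Bre1 (-0.13) it was 0 without the filter and with unique reads, -0.59 as deposited, 0.12 with quantile normalization and -0.23 for genes measured in each experiment. Only 12 members were tested with unique reads. Members inside a host had no unique read, so their ratio in that setting was 0 by construction with either antibody. The sign turned for Psi members with Lsd1 (0.54 with quantile normalization, 0.14 for genes measured in each experiment) and Bre1 (0.09 with a minimum of 5, 0.19 with quantile normalization), and for other members with Lsd1 (0.58 with quantile normalization) and Bre1 (0.01 without the filter, 0.12 with quantile normalization).

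Fitted changes with Lsd1 turned for scaRNA:PsiU2-55 (-0.08 as deposited, -1.30 without the first Lsd1 library, -0.54 without the second IgG library; range over left-out libraries -1.30 to 2.68), snoRNA:Psi28S-291 (-0.53 as deposited), snoRNA:CG32479-a (-0.79 without the second IgG library, range to 1.09), snoRNA:CG32479-b (range from -1.99; 0.56 without the second Lsd1 and 0.20 without the first IgG library) and snoRNA:Psi18S-531 (0.23 with edgeR). With Bre1 they turned for scaRNA:PsiU2-55 (0.20 without the first Bre1 library, range from -6.21) and snoRNA:Psi18S-531 (0.25 with DESeq2). Read sums of experiment 2 turned for Psi snoRNAs (0.565 with Lsd1 as deposited; with Bre1 1.13 as a share of reads outside ribosomal RNA and 1.0 without Psi28S-3436) and other snoRNAs (0.247 with Lsd1 and 0.790 with Bre1 as deposited, 0.601 with Bre1 without Or-aca5 and Or-CD2). As shares of reads outside ribosomal RNA, the Lsd1 sums stayed above IgG, at 2.99 for Psi snoRNAs and 1.31 for other snoRNAs. The Me scaRNA sums stayed below IgG, at 0.0187 to 0.139 with Lsd1 and 0.189 to 0.342 with Bre1. Where settings changed a result, the cause was not tested. As to depth, 25 of the 67 tested members had 0 reads with Lsd1 in experiment 2, and 3 members had a fragment with Bre1 in experiment 1.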
